A study of Mus musculus with 11 samples.

Results

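Dpysl3, Zbtb7c, Copz2, Vasn, Plagl1 and Cd63 are 6 protein-coding genes that are seldom discussed in work on bone. They were selected on their measured values, because every library from BMAd-DTA mice lay above every Control library for each of them. They are 6 of the 22600 genes in the merged count table and 6 of the 293 genes, out of 16496 tested, that have this property. All 6 passed the filter on low counts, and 122 counts (Zbtb7c) was their smallest value in any library. The data are read counts per gene from whole distal tibiae of mice in which bone marrow adipocytes (BMAd) were targeted for ablation and of their controls, 4 Control and 7 BMAd-DTA libraries with 1 mouse each. Counts assigned to genes numbered 16969529 to 18637663 per Control library (median 17701061) and 17128711 to 18432805 per BMAd-DTA library (median 17612195).

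The labels give every mouse the strain C57BL6/SJL and an age of 24 weeks, and all were fed ad libitum. Control mice (genotype label BMAd-WT) carry Osterix-FLPo, a FLP recombinase made in cells that have used the Osterix promoter, and FAC, a Cre placed in the Adipoq gene that only works after FLP has acted. The BMAd-DTA mice carry both of these and also ROSA-DTA, a diphtheria toxin A gene that Cre switches on and that kills the cell. Both recombinase alleles are therefore shared by the groups, which differ by the toxin allele. The study's text notes that a small subset of marrow adipogenic precursors appears to be targeted as well and that recombination may not be complete. In bulk tissue, more cells of a type and more RNA per cell cannot be told apart, and this holds for every level given here.

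Dpysl3 encodes CRMP4, a cytoskeletal protein best known from growing axons. Zbtb7c is a BTB zinc finger transcription factor of the same family as Zbtb7a and Zbtb7b. Copz2 encodes zeta-2, an alternative to the Copz1 product in the COPI coat, which carries cargo from the Golgi back to the endoplasmic reticulum. Vasn (vasorin) is a membrane protein that binds TGF-beta outside the cell. Plagl1 (Zac1) is an imprinted zinc finger factor that restrains cell growth, and Cd63 is a tetraspanin of late endosomes, lysosomes and exosomes that also serves as a receptor for the metalloproteinase inhibitor Timp1.

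The genes lie on 4 chromosomes of GRCm38, the assembly named mm10. Copz2 lies at chr11:96849870-96861203, Vasn at chr16:4639941-4650802, Plagl1 at chr10:13060504-13131694 and Cd63 at chr10:128900989-128912822, all on the plus strand. Because these genes were picked for differing in the same direction, the 250 bases before the RefSeq start of 4 of them are shown (GRCm38.p6, plus strand, 5′ to 3′). Capitals mark the GC box, the letters GGGCGG on either strand. The windows are chr11:96849626-96849875 for Copz2, chr16:4639695-4639944 for Vasn, chr10:13090582-13090831 for Plagl1 and chr10:128909095-128909344 for Cd63, the last 2 starting from RefSeq transcripts that begin well inside the annotated span of the gene.
Copz2: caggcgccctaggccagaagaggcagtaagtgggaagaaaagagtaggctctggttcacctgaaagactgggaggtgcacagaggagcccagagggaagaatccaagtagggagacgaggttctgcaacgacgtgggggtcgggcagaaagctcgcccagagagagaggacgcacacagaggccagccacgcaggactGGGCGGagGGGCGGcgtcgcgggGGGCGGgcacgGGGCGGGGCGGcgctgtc
Vasn: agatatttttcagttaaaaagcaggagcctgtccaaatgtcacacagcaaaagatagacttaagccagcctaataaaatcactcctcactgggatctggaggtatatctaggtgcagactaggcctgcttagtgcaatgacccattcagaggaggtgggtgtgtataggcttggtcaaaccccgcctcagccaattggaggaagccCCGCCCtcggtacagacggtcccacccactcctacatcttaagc
Plagl1: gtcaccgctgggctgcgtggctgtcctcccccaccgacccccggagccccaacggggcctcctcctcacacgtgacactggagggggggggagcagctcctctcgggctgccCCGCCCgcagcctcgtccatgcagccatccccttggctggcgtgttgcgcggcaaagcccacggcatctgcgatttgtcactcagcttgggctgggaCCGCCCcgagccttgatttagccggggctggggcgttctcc
Cd63: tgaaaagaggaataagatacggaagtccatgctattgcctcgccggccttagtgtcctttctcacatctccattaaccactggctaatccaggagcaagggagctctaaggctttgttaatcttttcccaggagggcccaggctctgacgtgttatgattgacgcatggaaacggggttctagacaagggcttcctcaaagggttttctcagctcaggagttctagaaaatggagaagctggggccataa
The GC box was found 5 times before Copz2, 2 times before Plagl1, once before Vasn and 0 times before Cd63, and 32.7% of 32851 mouse promoter windows of this length hold it. The GC content was 66% for Copz2, 70.4% for Plagl1, 49.6% for Vasn and 48.8% for Cd63, with a median of 52.4% over all windows. The CCAAT box, searched on both strands, occurred 2 times before Vasn, where it overlaps an E-box (CANNTG), and in 33.8% of all windows. The TCF motif CTTTGA occurred once before Cd63 and in 13.8% of all windows. None of the 4 windows holds the letters of the RUNX motif TGTGGT (14% of all windows), the TATA box TATAAA (12.4%) or the AP-1 motif TGANTCA (6.75%). The E-box, found in 66.2% of all windows, occurred before Copz2, Vasn and Plagl1 but not before Cd63, so none of the motifs searched was found in all 4 windows. These letter matches are descriptions of the windows and not binding sites.

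Dpysl3 had the widest gap between the groups. It shares a chromosome with Zbtb7c. Dpysl3 spans chr18:43320984-43438286 on the minus strand and Zbtb7c spans chr18:75820178-76148564 on the plus strand. Both are long genes, of 117303 and 328387 bases, with 6.61 and 4.73 kb of exon. Its level in CPM (read counts scaled to a fixed library total, with TMM library factors) was 48.6, 60.7, 63.2 and 70.8 in Control 1 to 4, and ran from 101 through a median of 102 to 125 in BMAd-DTA. BMAd-DTA 3 and BMAd-DTA 7 were the highest libraries and 4 of the others sat close together between 101 and 102. The lowest BMAd-DTA library was 1.42 times the highest Control library, the largest such ratio of the 6 genes. The means were 60.8 ± 9.20 CPM (SD, n = 4) and 110 ± 11.2 CPM (SD, n = 7), a log2 fold change of 0.85 (SE 0.104). This difference chose the gene, so it carries no test, and the same holds for the other 5 genes.

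Zbtb7c was the least abundant of the 6 and had the largest log2 fold change, 0.99 (SE 0.150). Its level was 7.88, 7.3, 10.3 and 6.33 CPM in Control 1 to 4 and ran from 12.7 through a median of 15.8 to 18.3 CPM in BMAd-DTA. Control 3 was the highest control and BMAd-DTA 2 the lowest BMAd-DTA library, 1.22 times as high. The means were 7.96 ± 1.71 CPM (SD, n = 4) and 15.8 ± 2.23 CPM (SD, n = 7).

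Copz2 was 20, 23.6, 25.2 and 20.4 CPM in Control 1 to 4 and ran from 29.6 through a median of 37.2 to 44.6 CPM in BMAd-DTA, with BMAd-DTA 6 and BMAd-DTA 3 highest and BMAd-DTA 7 lowest. The means of 22.3 ± 2.52 CPM (SD, n = 4) and 37.6 ± 5.23 CPM (SD, n = 7) give a log2 fold change of 0.76 (SE 0.115). An intron of Copz2 holds Mir152 on the same strand, and the microRNA is shown because it shares this primary transcript. Its mature 3p strand (RefSeq, GRCm38.p6, chr11:96850439-96850459, plus strand) has its seed, bases 2 to 8, in capitals.
mmu-miR-152-3p: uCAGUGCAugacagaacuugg
The Mir152 hairpin was listed at 0 counts in every library of these mRNA libraries, so no level of the microRNA is given.

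Vasn was 35.2, 35.6, 41.9 and 33.7 CPM in Control 1 to 4 and ran from 50.1 through a median of 64.2 to 73.2 CPM in BMAd-DTA. BMAd-DTA 3 and BMAd-DTA 1 were highest, and BMAd-DTA 7 and BMAd-DTA 5 lowest. The means of 36.6 ± 3.64 CPM (SD, n = 4) and 61.4 ± 9.50 CPM (SD, n = 7) give a log2 fold change of 0.75 (SE 0.118). The gene lies within Coro7 on the opposite strand and shares exon bases with Dnaja3 on its own strand, so its counts are less certain than those of the other 5 genes. In the per-library tables, 11.6% to 31.2% of the counts on both strands of Vasn were on the opposite strand, against at most 5.43% for the other genes. Neither overlapping gene passed the test between the groups, with log2 fold changes of 0.05 (SE 0.068, edgeR adjusted p = 0.779) for Coro7 and -0.06 (SE 0.095, edgeR adjusted p = 0.795) for Dnaja3.

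Plagl1 was the gene closest to failing the selection. It was 36.8, 42.2, 34.9 and 40.4 CPM in Control 1 to 4 and ran from 47.3 through a median of 59.1 to 64.6 CPM in BMAd-DTA. BMAd-DTA 5, the lowest, was 1.12 times Control 2, the highest control. The means of 38.6 ± 3.33 CPM (SD, n = 4) and 58.7 ± 6.44 CPM (SD, n = 7) give a log2 fold change of 0.60 (SE 0.093). Just outside the selection among the related genes described further on was Gnas, an imprinted G protein subunit, with a ratio of 0.983.

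Cd63 was the most abundant of the 6 and had the smallest log2 fold change, 0.51 (SE 0.077). Its level was 140, 147, 153 and 149 CPM in Control 1 to 4, a narrow band, and ran from 192 through a median of 202 to 251 CPM in BMAd-DTA. BMAd-DTA 3 stood highest and BMAd-DTA 7 lowest. The means were 147 ± 5.62 CPM (SD, n = 4) and 210 ± 21.1 CPM (SD, n = 7).

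**Figure D1:**
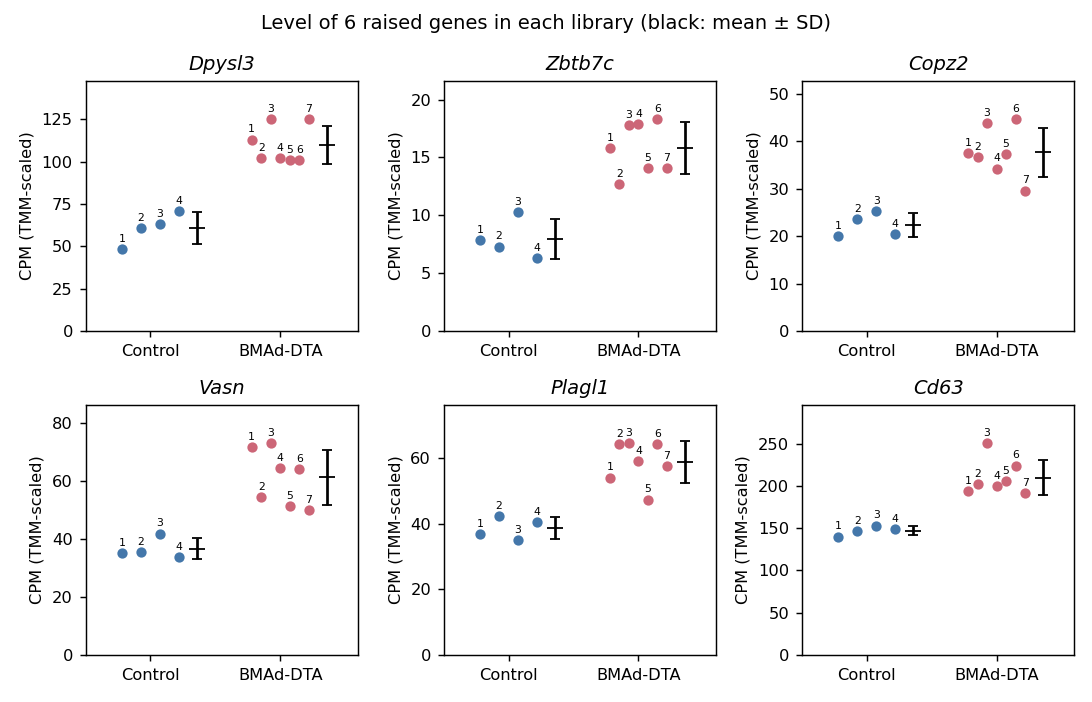
Level of the 6 genes in each library, in TMM-scaled CPM on axes that start at 0, with Control libraries in blue, BMAd-DTA libraries in red, replicate numbers beside the points and the mean ± SD in black. No BMAd-DTA library reaches down to a Control library for any gene, with the narrowest gap for Plagl1 (ratio 1.12) and the widest for Dpysl3 (1.42).

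As background, 1.78% of the 16496 genes tested had every BMAd-DTA library above every Control library and 1.04% had every one below. The edgeR quasi-likelihood test across all genes called 0.0727% higher and 0.00606% lower in BMAd-DTA at an adjusted p under 0.05, that is 12 genes and 1 gene. Both counts were 0 when Control 1, Control 2, BMAd-DTA 1 or BMAd-DTA 6 was left out, and they were 176 and 116 without Control 3 and 30 and 59 without Control 4. At an unadjusted p under 0.05 the test gave 1301 genes higher and 1407 lower, and DESeq2 called 433 and 412 at an adjusted p under 0.05. The 6 genes ranked from 268 (Zbtb7c) to 1082 (Cd63) of 16496 by log2 fold change.

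Levels were compared between genes per kilobase of exon. In Control libraries the order was Cd63 (39.9 ± 1.53 CPM per kb, SD, n = 4), Vasn (12.2 ± 1.21), Copz2 (10.1 ± 1.14), Dpysl3 (9.21 ± 1.39), Plagl1 (4.94 ± 0.426) and Zbtb7c (1.68 ± 0.361). In BMAd-DTA the order was the same, at 57 ± 5.74 (SD, n = 7), 20.4 ± 3.16, 17.1 ± 2.37, 16.6 ± 1.69, 7.51 ± 0.823 and 3.34 ± 0.471 CPM per kb. The ranges of Copz2 and Dpysl3 overlapped in both groups and Copz2 was above Dpysl3 in 8 of 11 libraries, so the order of these neighbours was not the same in every library. The ranges of Vasn and Copz2 overlapped too, but Vasn was above Copz2 within each of the 11 libraries. Cd63, Plagl1 and Zbtb7c stood clear of their neighbours in both groups. Among all tested genes with a position, Cd63 was at the 92.7 percentile in Control libraries and Zbtb7c at the 28.7 percentile.

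The same libraries tended to be high for several of the genes. BMAd-DTA 3 was the highest of the 7 for Dpysl3, Vasn, Plagl1 and Cd63, and its mean rank over the 6 genes was 1.5, where 1 is highest. BMAd-DTA 6 was highest for Zbtb7c and Copz2, with a mean rank of 2.83, and lowest for Dpysl3. BMAd-DTA 7 was lowest for Copz2, Vasn and Cd63 and had a mean rank of 5.50. Among controls, Control 3 was highest for 4 of the 6 genes and lowest for Plagl1.

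The selection used the lowest BMAd-DTA level of each gene but not which library held it. Pairs of genes were therefore tested over the 7 BMAd-DTA libraries, by Pearson's r of log2 CPM (prior count 2) with an exact permutation test, two-sided. Of the 15 pairs, 14 had r above 0. By Spearman's rho, Dpysl3 was at -0.21 with each of Zbtb7c, Copz2 and Cd63, and the other pairs were above 0. The pairs are made of only 6 genes, so they are not independent. The share above 0 among other gene pairs was not computed. At an adjusted p under 0.05, 0 pairs passed, while 1 had an unadjusted p under 0.05. That pair was the coat subunit Copz2 and the tetraspanin Cd63, with r = 0.81 (exact p = 0.0292, adjusted p = 0.438) and rho = 0.75 (exact p = 0.0663, adjusted p = 0.648), and r = 0.89 without the 2 libraries farthest from the median. Leaving out each library in turn kept r between 0.80 and 0.87. Zbtb7c and Vasn had r = 0.76 (exact p = 0.0619, adjusted p = 0.464) and rho = 0.54 (exact p = 0.236, adjusted p = 0.648), with r = 0.84 without the 2 farthest libraries. Dpysl3 stood apart from the rest, with r between -0.20 (Copz2) and 0.21 (Cd63) against the other 5 genes. With 5040 orders of 7 libraries, the smallest p this test can give is 0.000198.

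Marker lists of 14 cell types were then read beside the genes, since the whole bone holds many cell types. All 12 osteoblast and osteocyte markers had a log2 fold change above 0 (median 1.1), and their summed level was 2980 to 13000 CPM in Control and 15300 to 36100 CPM in BMAd-DTA. All 8 osteoclast markers were above 0 (median 1.0), as were 7 of the 8 fibroblast and periosteum markers (median 0.28) and all 6 tested chondrocyte markers (median 0.19). The summed osteoclast level, 1330 to 2880 against 1810 to 4670 CPM, overlapped between the groups. None of the genes in these 4 lists passed at an adjusted p under 0.05 in the edgeR test or limma-voom, although 12, 5, 2 and 2 of them had an unadjusted p under 0.05 in the edgeR test, and DESeq2 called 9, 1, 1 and 1 of them higher. All 12 adipocyte markers were below 0 (median -0.79, summed level 1370 to 2200 against 654 to 1600 CPM) and Retn, the gene of the adipocyte hormone resistin, passed (-1.38, SE 0.17, edgeR adjusted p = 0.0205). The Retn call was lost without Control 1, Control 2, BMAd-DTA 1 or BMAd-DTA 6, where the edgeR adjusted p was 0.0515 to 0.0889. Adipoq, the adipocyte hormone gene that carries the Cre, overlapped between the groups, with 28.5 CPM in Control 4 and 67.3, 81.3, 115 and 109 CPM in BMAd-DTA 1, 4, 5 and 6. Over all 16496 genes tested the median log2 fold change was 0.0018, 50.4% were above 0, and 1301 were higher at an unadjusted p under 0.05. Every marker list had counts in every library, and the part of these cell types in the levels of the 6 genes was not tested.

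Skeletal muscle markers varied with the library and not only with the group, from 13.4 to 968 CPM summed over 10 genes in Control and from 14.5 to 784 CPM in BMAd-DTA. With the muscle score as a covariate, the log2 fold changes of the 6 genes lay between 0.49 (Cd63) and 1.06 (Zbtb7c).

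A score for each list, the mean log2 CPM of its tested markers, was correlated with each gene over the 7 BMAd-DTA libraries. Of the 84 relations, 0 passed at an adjusted p under 0.05 and 2 had an unadjusted p under 0.05 by Pearson's r, 3 by Spearman's rho. Vasn went with the osteoclast score at r = 0.85 (exact p = 0.0222, adjusted p = 0.841) and rho = 0.89 (exact p = 0.0123, adjusted p = 0.941), and r was 0.69 without the 2 libraries farthest from the median score. It stayed between 0.79 and 0.93 when each library was left out. The osteoclast scores themselves overlapped between the groups, since Control 3 had a score of 5.52, above BMAd-DTA 2, 5, 6 and 7. Dpysl3 went with the fibroblast and periosteum score at r = 0.79 (exact p = 0.0349, adjusted p = 0.841) and rho = 0.61 (exact p = 0.167, adjusted p = 0.941), and at 0.88 without the 2 farthest libraries. Over all 11 libraries, with each group mean subtracted, that r was 0.02, against 0.82 for Vasn and the osteoclast score.

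Cd63 had its highest r with the osteoblast and osteocyte score, 0.67 (exact p = 0.0677, adjusted p = 0.841, rho = 0.82 with exact p = 0.0341 and adjusted p = 0.941), and r was 0.68 without the 2 libraries farthest from the median score. Over single libraries left out, this r ran from 0.13 without BMAd-DTA 3 to 0.90 without BMAd-DTA 2. By rank, Plagl1 was also closest to the osteoblast and osteocyte score (rho = 0.82, exact p = 0.0341, adjusted p = 0.941), with r = 0.59 (exact p = 0.152, adjusted p = 0.841) and 0.11 without the 2 libraries farthest from the median score. By Pearson's r, the strongest relations of Plagl1 were with the erythroid score (r = -0.78, exact p = 0.0548, adjusted p = 0.841, rho = -0.46 with exact p = 0.302) and the neutrophil score (r = 0.74, exact p = 0.0639, adjusted p = 0.841, rho = 0.64 with exact p = 0.139). Neither of these relations of Plagl1 held without the 2 libraries farthest from the median score, where r was 0.06 and -0.15. The highest r was 0.58 for Zbtb7c, with the osteoclast score, and 0.54 for Copz2, with the chondrocyte score. The adipocyte score had r between -0.59 (Dpysl3) and 0.55 (Zbtb7c), so the genes differed in sign there.

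**Figure D2:**
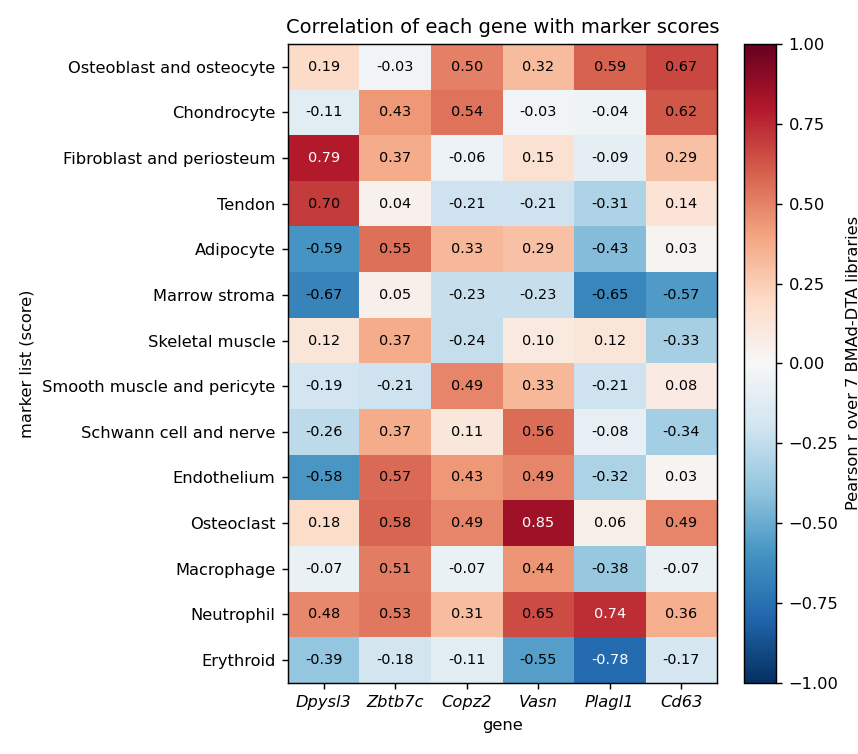
Pearson's r over the 7 BMAd-DTA libraries between log2 CPM of each gene (columns) and the score of each of the 14 marker lists (rows), from -1 in blue to 1 in red with the value printed. The strongest positive cells are Vasn with osteoclast markers (0.85) and Dpysl3 with fibroblast and periosteum markers (0.79), and no cell passed at an adjusted p under 0.05.

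**Figure D3:**
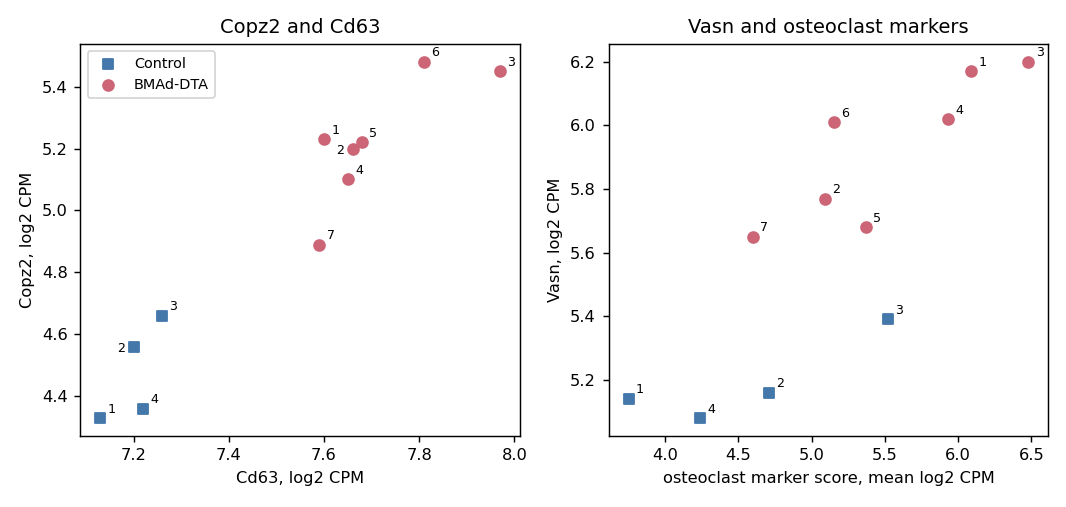
Log2 CPM of Copz2 against that of Cd63 (left) and log2 CPM of Vasn against the osteoclast marker score (right), with Control libraries as blue squares, BMAd-DTA libraries as red circles and replicate numbers beside them. BMAd-DTA 3 and 6 are the 2 highest libraries in the left panel, and in the right panel the osteoclast scores of the groups overlap (Control 3 at 5.52). The gap between the groups in Vasn, Copz2 and Cd63 was set by how these genes were chosen.

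Genes whose level followed each of the 6 most closely were sought among the 12973 genes whose mean reached 50 counts, by r over the 11 libraries after each group mean was subtracted. They are the top of a long ranking and carry no test. For Dpysl3 the 5 most alike were Arl15 (r = 0.92), Anks1, Cemip2, Lrch1 and Dip2b (0.89), with group log2 fold changes between -0.14 and 0.12. For Zbtb7c they were Gsn (0.94), which encodes the actin-severing protein gelsolin, then 2210406H18Rik, Ptpn14, Ppp1r12b and Bnip3 (0.91). For Copz2 they were Dgcr6 (0.94), Rom1, Rab34, 1110008P14Rik and Tead2 (0.91).

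For Vasn the list was Gask1b (r = 0.95), Mmp9 (0.93), Pcdh19, Cd109 and Ppan (0.92). Mmp9, the gelatinase abundant in osteoclasts, is also one of the 8 osteoclast markers. For Plagl1 the most alike gene was Fto (0.94), an RNA demethylase, followed by Ctnnbip1, Pdlim2, Tesmin and Asxl1 (0.86). For Cd63 it was Itga10 (0.94), a collagen-binding integrin subunit, followed by Cdk5rap3, Evc, Fkbp7 and Fan1 (0.90). Itga10 was the only one of these 30 genes that passed between the groups, with a log2 fold change of 0.81 (SE 0.13, edgeR adjusted p = 0.0384). This call was lost in 8 of the 11 fits that left out 1 library (all but those without Control 3, Control 4 or BMAd-DTA 3). Over all 11 of these fits the edgeR adjusted p ran from 0.0282 to 0.164, and it was 0.0812 with the muscle score as a covariate. DESeq2 and limma-voom also called Itga10, and DESeq2 called Fkbp7 as well.

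The closest relatives of the 6 genes were tested next. The selection rule did not use their values, but their lists were chosen with earlier results of these data known. The family list of Dpysl3 had 3 of 6 tested genes above 0 and 3 below, and 0 had an unadjusted p under 0.05. Dpysl2, encoding CRMP2, had a log2 fold change of 0.19 (95% interval -0.09 to 0.47), Crmp1 of -0.28 (-0.92 to 0.37) and the CRMP kinase Cdk5, the highest of the list, of 0.19 (-0.01 to 0.40). Per kilobase of exon, Dpysl3 made up 73.9% ± 3.26 (SD, n = 4) of the sum of Dpysl2, Dpysl3 and Crmp1 in Control and 82.1% ± 2.12 (SD, n = 7) in BMAd-DTA, so it was the most abundant of these 3 genes in both groups. Such a share contains the chosen gene, so its difference between the groups reuses the values of the selection. The same holds for the shares of Zbtb7c, Copz2 and Plagl1 below.

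Among 10 BTB zinc finger genes 4 were above 0 and 6 below, with 1 higher and 1 lower at an unadjusted p under 0.05 in the edgeR test. Zbtb7a, a repressor that acts in blood cell development, had a log2 fold change of -0.23 (95% interval -0.42 to -0.04, edgeR adjusted p = 0.205), and Zbtb7b of -0.04 (-0.20 to 0.11). Zbtb10 was highest at 0.43 (SE 0.15, edgeR adjusted p = 0.175). Zbtb7c made up 3.58% ± 0.717 (SD, n = 4) of the 3 Zbtb7 genes per kilobase in Control and 7.50% ± 0.981 (SD, n = 7) in BMAd-DTA.

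The COPI list held 17 genes of the coat and its cycle, 13 above 0 and 4 below (median 0.070). The other zeta subunit, Copz1, was 137 CPM in Control and 142 CPM in BMAd-DTA, a log2 fold change of 0.05 (95% interval -0.08 to 0.19), and the coat subunits Copg1 and Copg2 were at 0.04 and -0.09. Copz2 made up 21.2% ± 2.5 (SD, n = 4) of the 2 zeta genes per kilobase in Control and 30.4% ± 2.68 (SD, n = 7) in BMAd-DTA, with libraries from 18.5% to 24.2% and from 26% to 34.6%. This gap reuses the values that chose Copz2. The highest of the list was Kdelr3, a receptor that returns escaped proteins to the endoplasmic reticulum. It was 7.22, 12.1, 13.8 and 9.18 CPM in Control 1 to 4 and 13.9 to 29.4 CPM in BMAd-DTA, with a log2 fold change of 0.99 (SE 0.20, edgeR adjusted p = 0.0675). It therefore missed the threshold, although its lowest BMAd-DTA library was 1.01 times its highest control. Of the 17 genes, 4 had an unadjusted p under 0.05, all of them above 0. Beside this and the other lists, 50.4% of the 16496 genes tested were above 0. At an unadjusted p under 0.05, 1301 of the 16496 were higher and 1407 lower.

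In the list of TGF-beta ligands, receptors and responses, set beside Vasn, 11 of 14 genes were above 0 (median 0.13) and 3 had an unadjusted p under 0.05. The lowest was Tgfbi, a matrix protein, at -0.09 (SE 0.088, edgeR adjusted p = 0.681). In the list of PLAG family and imprinted genes, which also holds Adcyap1r1 and Cdkn1a, 8 of 14 were above 0 (median 0.060). At an unadjusted p under 0.05 in the edgeR test, 2 of these were higher and 3 lower. The relatives Plag1 and Plagl2 were at -0.56 (95% interval -1.24 to 0.12) and -0.15, and H19 at -0.12. The extremes were Slc38a4 at 0.80 (SE 0.56, edgeR adjusted p = 0.515), or 0.41 without BMAd-DTA 3, and Adcyap1r1, the receptor of the peptide PACAP, at -1.30 (SE 0.48, edgeR adjusted p = 0.199). Plagl1 made up 20.8% ± 1.12 (SD, n = 4) of the 3 PLAG genes per kilobase in Control and 30.8% ± 2.11 (SD, n = 7) in BMAd-DTA.

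Of 20 tested tetraspanin and late endosome genes, 10 were above 0 and 10 below (median 0.0087). At an unadjusted p under 0.05 in the edgeR test, 4 were higher and 0 lower. The tetraspanins Cd9 and Cd81 had log2 fold changes of 0.11 (95% interval -0.04 to 0.26) and 0.05 (-0.10 to 0.20). Timp1, the secreted ligand of Cd63, was 9.86, 9.72, 17.2 and 6.69 CPM in Control 1 to 4 and 12.3 to 40.7 CPM in BMAd-DTA, so the groups overlapped. Its log2 fold change was 1.07 (SE 0.30, edgeR adjusted p = 0.11), the highest of the list, and Rab27b, which takes part in exosome release, was lowest at -0.32 (SE 0.21, edgeR adjusted p = 0.482).

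Over the 6 lists, 81 of 87 genes were tested and the edgeR test called 0 higher and 0 lower at an adjusted p under 0.05. At an unadjusted p under 0.05 it gave 14 higher and 4 lower, beside 1301 and 1407 of all 16496 genes tested. Limma-voom also called 0 in each direction at an adjusted p under 0.05. DESeq2 called 7 higher, among them Arfgap1, Cdkn1a, Kdelr2, Kdelr3, Timp1 and Tspan17, and 0 lower. Without Control 3, the edgeR test called 5 higher (Arfgap1, Cdkn1a, Kdelr3, Ltbp3 and Timp1). In 5 of the 81 genes, or 6.17%, every BMAd-DTA library was above every Control library, against 1.78% of all genes tested. These were Kdelr3, Arfgap1, Kdelr2, the cell cycle inhibitor Cdkn1a and the tetraspanin Tspan17. Kdelr3 is named as the highest of its list and the others after their values were seen, so the naming of each rests on its values. Cdkn1a was 30.9 ± 3.67 CPM (SD, n = 4) and 42.9 ± 4.30 CPM (SD, n = 7), a log2 fold change of 0.47 (SE 0.097, edgeR adjusted p = 0.0675).

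**Figure D4:**
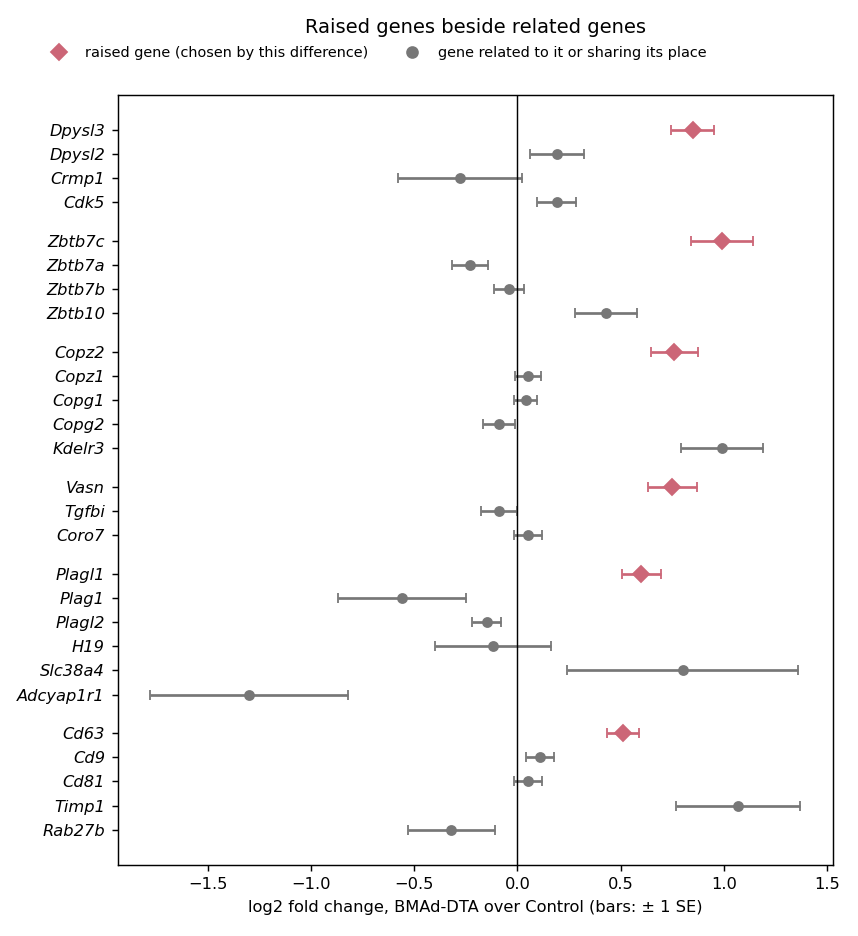
Log2 fold change of BMAd-DTA over Control for the 6 genes (red diamonds, chosen by this difference) and for genes related to each or overlapping it (grey circles), with bars of 1 SE. Copz1, Zbtb7b, Coro7 and Cd81 lie near 0, Kdelr3 (0.99) and Timp1 (1.07) lie as far right as Zbtb7c, and none of the grey genes passed at an adjusted p under 0.05 in the edgeR test over all libraries, while DESeq2 called Kdelr3 and Timp1 among them.

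The nearest tested genes on either side of each gene, 12 in all, included 0 that passed at an adjusted p under 0.05 and 2 with an unadjusted p under 0.05 in the edgeR test, and DESeq2 and limma-voom called 0. Gdf11, a TGF-beta family ligand 9.27 kb from Cd63, had a log2 fold change of 0.42 (SE 0.17, edgeR adjusted p = 0.222). Eif3j2, 37.1 kb from Dpysl3, had the largest value, 2.02 (SE 0.93, edgeR adjusted p = 0.300). This value rests on 2 libraries, since Eif3j2 was 8.14 CPM in BMAd-DTA 2 and 7.99 CPM in BMAd-DTA 7 but between 0.352 and 1.36 CPM in the other 9 libraries. Of these 2 libraries, BMAd-DTA 7 was also high for Dpysl3 (125 CPM, rank 2 of 7), while BMAd-DTA 2 was not (102 CPM, rank 4). The other neighbours, among them the TGF-beta signal transducer Smad2 near Zbtb7c at 0.03, lay between -0.11 and 0.15.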

How the data were processed

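Strand-specific mRNA libraries were made from whole distal tibiae, 1 per mouse. The authors checked reads with FastQC 0.11.9, aligned them to mm10 with STAR and deposited raw counts per gene, in 1 table a library and 1 merged table. The merged counts equal the second-strand column of the library tables (0 cells differ). The labels do not number the replicates, so libraries are numbered in order of listing.

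The test was the quasi-likelihood F-test of edgeR 4.0.16 under R 4.3.3 (filterByExpr, TMM scaling, two-sided, Benjamini-Hochberg over 16496 genes, threshold 0.05). Correlations used Python 3.11.15 and exact permutation. Positions came from GENCODE M21 (99.95% of genes tested matched). Alternatives were DESeq2 1.42.0, limma-voom (limma 3.58.1), other scalings, filters and prior counts, a muscle covariate and each library left out. On simulated data with 200 genes changed by 1 on the log2 scale, the edgeR step recovered 85% to 88% over 16244 to 16261 genes, with 4 to 5 unchanged genes called. The changed genes were drawn from those with a mean of at least 50 counts. Noise was simulated independently for each gene, without the variation that many genes of a library share, and smaller changes were not simulated. Within groups no libraries were alike within sampling noise (chi-square per gene at least 13.9).

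The 6 genes and all lists were chosen with earlier results of these data known. Named were these genes, the extremes of each related list, fixed close relatives, any listed gene past the threshold, the 5 most alike genes and the neighbours, except 1 result that is not reported here.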

Additional observations from a re-analysis of the deposited data

Results flagged for a closer look

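Of 88 groups of values examined for a library standing apart from its own group by Dixon's criterion, 9 did so, and chance gives about 1 in 20. None was a level of the 6 genes. Among related genes, Timp1 was 40.7 CPM in BMAd-DTA 1, with 23.8 CPM in the next library. Copg2 was 40.2 CPM in BMAd-DTA 2 (next 45.2), Copg1 was 168 CPM in BMAd-DTA 3 (next 156) and Plag1 was 1.81 CPM in Control 4 (next 3.36). Among marker scores, in mean log2 CPM, the skeletal muscle score of Control 4 was -0.0818, with 4.67 in the next Control library. The marrow stroma score of Control 1 was 6.85 (next 7.29) and the neutrophil score of Control 4 was 10.8, just under the other controls. In BMAd-DTA 5 the neutrophil score was 10.5 (next 10.9) and the erythroid score 9.26 (next 8.83).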

How the results depend on the processing

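The log2 fold changes of the 6 genes kept their direction in all 120 refits. The selection made this outcome nearly certain, so it is no measure of stability. Leaving out each library gave 0.76 to 0.94 for Dpysl3, 0.89 to 1.14 for Zbtb7c, 0.71 to 0.82 for Copz2, 0.70 to 0.82 for Vasn, 0.56 to 0.65 for Plagl1 and 0.47 to 0.54 for Cd63. Counts of calls varied between settings, and the cause was not tested. DESeq2 called 433 genes higher and 412 lower, with 7 related genes higher. Genes lower numbered 6 by limma-voom, 5 with RLE scaling and 2 without scaling, and genes higher numbered 2 with the muscle covariate. Leaving out each library gave 0 to 176 genes higher, 0 to 116 lower and 0 to 5 related genes higher, with the highest counts all without Control 3. Retn missed the threshold without Control 1, Control 2, BMAd-DTA 1 or BMAd-DTA 6. Itga10 missed it in 8 of 11 such fits and with the muscle covariate. H19 turned to 0.081 with the muscle covariate and Crmp1 ran from -0.438 to 0.009 over the libraries left out, above 0 without Control 3, and Smad2 from -0.018 to 0.092, below 0 without Control 1, Control 3 or BMAd-DTA 1, none past the threshold. Relations passing at an adjusted p under 0.05 numbered 0 in every alternative by exact permutation, with 1 to 7 of 84 marker relations and 0 to 2 of 15 pairs at an unadjusted p under 0.05. With 1 or 2 libraries left out, the test has too few orders for any single one of the 84 marker relations to pass after adjustment. The 0 in those settings is therefore no measure of stability. No paired analysis was made, because each library comes from a different mouse and the labels give no pairing. Among the 6 genes the error was widest for Zbtb7c, the least abundant (SE 0.150).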
